A study of Arabidopsis thaliana with 42 samples.

Results

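The 10 genes described here are transcripts that salicylic acid is known to induce in Arabidopsis thaliana, and they were chosen by locus: PR1 (AT2G14610), PR2 (AT3G57260, also called BGL2), PR5 (AT1G75040), NIMIN1 (AT1G02450), WRKY70 (AT3G56400), WRKY38 (AT5G22570), GSTF6 (AT1G02930), GSTF7 (AT1G02920), AED1 (AT5G10760) and ALD1 (AT2G13810). They are 10 of the 33323 nuclear genes listed for each library, and all 10 entered the tests. RNA came from seedlings of 19 natural accessions that founded the MAGIC lines, a population of intercrossed lines used to map traits. The reference genome is that of Col-0. The others were Bur-0, Can-0, Ct-1, Edi-0, Hi-0, Kn-0, Ler-0, Mt-0, No-0, Oy-0, Po-0, Rsch-4, Sf-2, Tsu-0, Wil-2, Ws-0, Wu-0 and Zu-0. All 19 were untreated, and none carried an introduced allele per the labels. Seeds had 5 days at 4 C, and plants then stood on soil for about 11 days at 20 C with 16 hours of light and 8 hours of dark. Each accession had 2 libraries of polyadenylated RNA that the labels call biological replicates, which makes 38. A further 4 libraries of Col-0 are called technical replicates. The labels do not say how plants were pooled, so p-values measure the spread between these samples, which may in part be technical.

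Salicylic acid is a plant hormone that accumulates after attack by biotrophic pathogens. It is perceived by NPR proteins, and NPR1 acts with TGA transcription factors at the promoters of target genes, among them PR1. The targets include secreted antimicrobial proteins, regulators that feed back on the pathway, detoxifying enzymes, and ALD1, an enzyme of the N-hydroxypipecolic acid route that spreads resistance to distant leaves.

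The promoters of WRKY70 and GSTF7 are shown because their genes led to main contrasts below: WRKY70 was highest in Edi-0 where most members were highest in Bur-0, and GSTF7 is a tandem copy of GSTF6 that differed from it in level. Each line gives the 250 bases before the gene's annotated start in RefSeq's TAIR10.1 genome, 5′ to 3′ on the gene's strand, so it is Col-0 sequence. Capitals mark TTGAC, the core of the W-box bound by WRKY factors, or TGACG, a core bound by TGA factors. A match on the opposite strand reads GTCAA or CGTCA. The WRKY70 bases lie at chr3:20910624-20910873 and those of GSTF7 at chr1:659981-660230, both on the minus strand.
WRKY70: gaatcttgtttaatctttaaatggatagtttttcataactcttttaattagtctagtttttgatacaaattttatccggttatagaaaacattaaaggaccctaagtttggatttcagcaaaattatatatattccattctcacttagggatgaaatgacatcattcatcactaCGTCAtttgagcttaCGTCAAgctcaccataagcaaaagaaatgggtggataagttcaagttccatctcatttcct
GSTF7: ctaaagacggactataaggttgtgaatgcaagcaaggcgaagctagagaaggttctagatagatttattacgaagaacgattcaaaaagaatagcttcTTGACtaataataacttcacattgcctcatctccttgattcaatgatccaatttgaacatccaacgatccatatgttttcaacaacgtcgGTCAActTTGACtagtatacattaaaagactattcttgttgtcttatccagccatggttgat

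Windows of 300 bases, 250 before and 50 after the start, were searched on both strands for 8 of the members, PR2, PR5, NIMIN1, WRKY70, WRKY38, GSTF7, AED1 and ALD1. TTGAC was found in PR2, PR5, WRKY70, WRKY38 and GSTF7, which is 5 of 8. Of all 27443 windows of that length, 50.5% held it. TGACG was found in WRKY70 and AED1, 2 of 8, against 23.1% of all windows. WRKY70 and AED1 each held 2 matches of TGACG, as 4.40% of windows held 2 or more, and GSTF7 held 3 of TTGAC, as 4.90% held 3 or more. The 2 motifs overlap where the letters run TTGACG, as they do once in WRKY70, on the opposite strand. NIMIN1 and ALD1 held neither motif in this window. These are matches of letters in the reference genome, and no binding was measured.

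Levels are RPKM, read numbers scaled by the authors to exon model length and to each library's mapped reads, so levels of different genes can be set side by side. Estimated depth was 1240000 to 4930000 reads per library, with a median of 3630000. By RefSeq exon length, 3 reads were worth 0.916 RPKM for PR1 in the median library. Low PR1 estimates of 3.2, 4.8, 6.4 and 8.0 reads moved in steps above 1, so that length probably exceeds the authors' exon model. Read estimates by this length may therefore be too high, and the value of 3 reads too low. Where a file holds 0 the gene is called listed at 0 and no fold is taken, and limits in reads cover counting error only. Tests ran in limma on log2(RPKM + 1), a scale that understates differences of low genes, over the 20453 genes with at least 1 RPKM in at least 2 libraries and a value in all 38. Adjusted p-values are Benjamini-Hochberg values over all these genes, with 0.05 as the threshold. Correlations across genes were 0.962 to 0.983 between the libraries of one accession. Accessions shared pairs of sequencing lanes, with 1 library in each lane except for Zu-0, which had both in the same lane, and the labels give no hour of harvest. The 5 mesophyll markers were abundant in every library, with sums of 24072 to 37084 RPKM, as in green tissue, while the 4 seed markers summed to at most 7.43 RPKM.

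All 10 members differed among the 19 accessions by the limma F test, where 55.1% of all genes tested did so. The range from the lowest to the highest accession mean was 4.48 on the log2 scale at the median of the 10 members and 0.998 at the median of all genes tested. The SD between accession means was 1.11 at the median of the members and 0.269 over all genes. The residual SD between libraries of an accession was also larger, 0.456 against 0.227 at the median. Bur-0 had the highest mean for 8 of the 10 members, where it had the highest mean for 5.93% of all genes. The exceptions were WRKY70, highest in Edi-0, and WRKY38, highest in Mt-0. Members and gene lists were chosen with earlier results of these data known. Comparisons with all genes, here and below, are therefore no independent support. Filtering bears on 2 members: WRKY38 reached 1 RPKM in 9 libraries and ALD1 in 5, so both passed the filter through the accessions in which they were high.

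**Figure D1:**
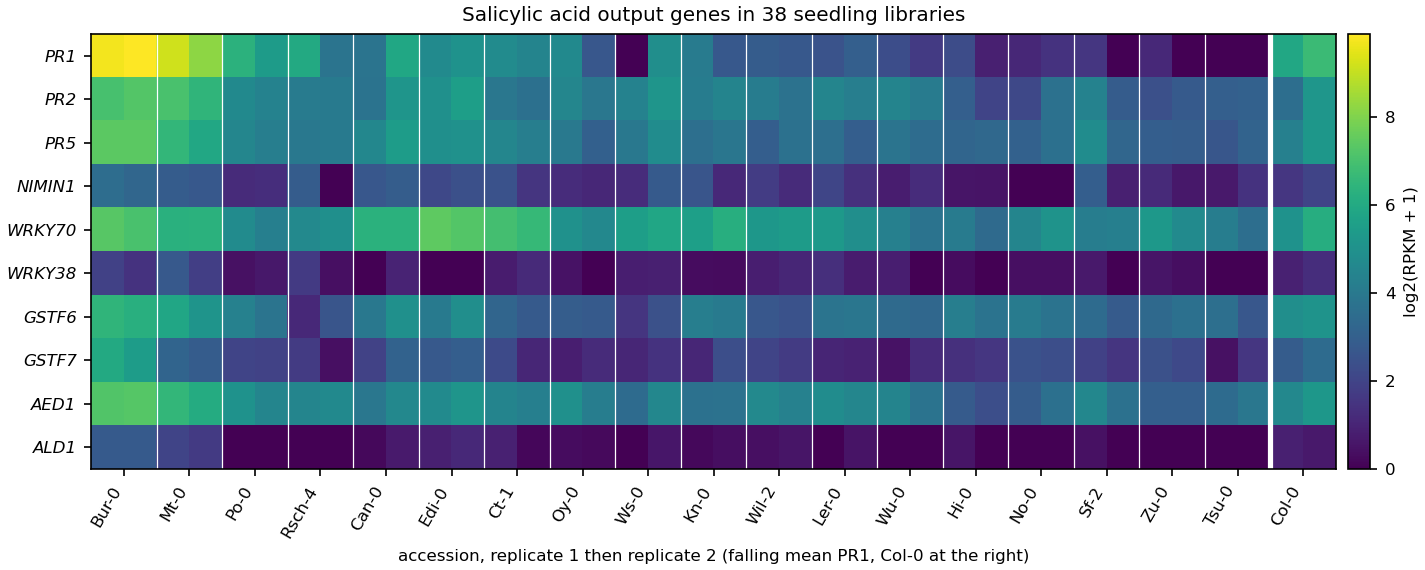
Level of each of the 10 members as log2(RPKM + 1) in the 38 biological libraries, 2 columns per accession, with accessions by falling mean PR1 and Col-0 at the right. All members share 1 colour scale. Bur-0 and Mt-0 form bright columns at the left for PR1, PR2, PR5 and AED1. GSTF6 and GSTF7 are brightest in Bur-0, and WRKY70 in Edi-0, Bur-0 and Ct-1. NIMIN1, WRKY38 and ALD1 stay in the darker part of the scale throughout.

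PR1 encodes a secreted protein that is the classical marker of salicylic acid defence, and its range was the widest of the 10, 9.81 on the log2 scale (limma F test, adjusted p = 2.82e-07). It stood at 847 and 948 RPKM in the Bur-0 libraries and at 572 and 293 RPKM in those of Mt-0. The Col-0 libraries, next in order, held 59.5 and 107 RPKM. Neither the Bur-0 nor the Mt-0 libraries overlapped those of any other accession. At the low end PR1 was listed at 0 in both Tsu-0 libraries, at 1.21 and 0 RPKM in Zu-0 and at 1.98 and 0 RPKM in Sf-2. With 3 reads worth 0.916 RPKM or more, these lowest accessions could not be ordered at this depth. Between Col-0 and Ler-0 the libraries of every pair of neighbours in the order overlapped, and the only further gap lay between Ler-0, at 4.71 and 6.94 RPKM, and Wu-0, at 4.08 and 2.19 RPKM. Libraries of one accession could lie far apart: PR1 was listed at 0 in Ws-0 replicate 1 and at 28.5 RPKM in Ws-0 replicate 2, at 63.6 and 13.1 RPKM in Rsch-4 and at 13.1 and 59.1 RPKM in Can-0.

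PR2, a secreted glucanase that cuts fungal cell walls, had the highest levels in the same accessions (adjusted p = 2.43e-06, limma F test). It was at 129 and 151 RPKM in Bur-0, at 133 and 88.5 RPKM in Mt-0 and at 30.1 and 45.9 RPKM in Edi-0. The lowest were Hi-0 with 6.95 and 3.13 RPKM, Zu-0 with 4.37 and 5.89 RPKM and Tsu-0 with 6.99 and 7.38 RPKM. Bur-0 and Mt-0 overlapped each other and stood above all others. From Edi-0 down to Tsu-0 neighbours in the order overlapped. A gap without overlap lay below Tsu-0, and Zu-0 and Hi-0 overlapped. PR5, a thaumatin-like protein, was at 167 and 169 RPKM in Bur-0, at 93.2 and 59.9 RPKM in Mt-0 and at 22.8 and 43.0 RPKM in Can-0 (adjusted p = 1.50e-07, limma F test). Tsu-0 with 5.27 and 7.83 RPKM, Zu-0 with 6.73 and 6.60 RPKM and Hi-0 with 8.35 and 9.14 RPKM were lowest. For PR5 Bur-0 stood clear of Mt-0, and Mt-0 clear of the rest. PR2 and PR5 reached 1 RPKM in all 38 libraries, where PR1 did so in 32.

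AED1 encodes an aspartyl protease of the apoplast that is induced in systemic immunity. It was at 146 and 156 RPKM in Bur-0, at 92.2 and 66.1 RPKM in Mt-0 and at 25.5 and 34.9 RPKM in Edi-0 (adjusted p = 3.67e-08, limma F test). Hi-0 with 6.18 and 4.17 RPKM, Zu-0 with 6.96 and 6.998 RPKM and No-0 with 6.36 and 11.5 RPKM were lowest. Gaps without overlap lay below Bur-0, below Mt-0 and between Zu-0 and Hi-0, and the accessions in between overlapped their neighbours. ALD1, the aminotransferase that starts pipecolic acid synthesis, was near its detection limit in most accessions. It was at 5.93 and 6.04 RPKM in Bur-0, at 3.05 and 2.17 RPKM in Mt-0 and at 0.806 and 1.22 RPKM in Edi-0 (adjusted p = 1.06e-07, limma F test). Only the Bur-0 and Mt-0 libraries both reached 1 RPKM, and they did not overlap each other or the rest. ALD1 was listed at 0 in both libraries of 6 accessions, Zu-0, Wu-0, Tsu-0, Rsch-4, Po-0 and No-0, and in 1 library of 4 more. In 26 libraries it lay under the value of 3 reads by RefSeq exon length, 0.526 RPKM in the median library.

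NIMIN1 encodes a small protein that binds NPR1 and restrains PR1 induction. It was at 10.4 and 8.60 RPKM in Bur-0, at 6.38 and 5.66 RPKM in Mt-0 and at 5.40 and 6.54 RPKM in Can-0. It was listed at 0 in both No-0 libraries, and it held 0.458 and 0.425 RPKM in Hi-0 and 1.26 and 0.544 RPKM in Zu-0. Bur-0 was clear of Mt-0, and Mt-0 and Can-0 overlapped. Its adjusted p of 0.0142 in the limma F test was the weakest of the 10, and 2 libraries of one accession could differ as much as accessions did: 6.34 and 0 RPKM in Rsch-4, and 6.73 and 0.812 RPKM in Sf-2. Without Bur-0 and Mt-0, an alternative chosen after the data were seen, the adjusted p of NIMIN1 was 0.130.

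WRKY70, a transcription factor that promotes salicylic acid responses and restrains jasmonate responses, differed between accessions (adjusted p = 1.45e-09, limma F test) and had Edi-0 and Ct-1 among its highest 3. Over the 19 accessions it still varied with PR1, with r = 0.681 and rho = 0.605 (permutation adjusted p = 0.00202 and 0.0145), and r was 0.565 without Bur-0 and Mt-0 (permutation adjusted p = 0.0468, n = 17). Edi-0 led with 174 and 149.5 RPKM, followed by Bur-0 with 160 and 131 RPKM and Ct-1 with 123 and 98.6 RPKM. Edi-0 and Bur-0 overlapped, and gaps without overlap followed below Bur-0 and below Ct-1. Mt-0, second for PR1, held 75.7 and 79.6 RPKM of WRKY70, overlapped by Can-0 with 77.6 and 78.7 RPKM. Hi-0 with 16.5 and 9.71 RPKM, Tsu-0 with 17.1 and 10.8 RPKM and Wu-0 with 18.7 and 12.7 RPKM were lowest. Edi-0 and Ct-1 held PR1 at 25.8 and 31.9 RPKM and at 26.2 and 20.8 RPKM, in the middle of the order for that gene. WRKY70 also had the smallest residual SD but one, 0.339 on the log2 scale, against 1.13 for PR1.

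WRKY38, a WRKY factor reported to restrain basal defence, was low throughout. It was at 5.84 and 2.59 RPKM in Mt-0, at 2.78 and 1.70 RPKM in Bur-0 and at 2.22 and 0.318 RPKM in Rsch-4 (adjusted p = 0.00124, limma F test). It was listed at 0 in both libraries of Edi-0 and Tsu-0, and at 0.256 and 0 RPKM in Hi-0. Every accession overlapped its neighbour in the order. In 23 libraries WRKY38 lay under the value of 3 reads by RefSeq exon length, 0.633 RPKM in the median library. Without Bur-0 and Mt-0 its adjusted p was 0.0996, so the accession difference of WRKY38 was past the threshold only with those 2 accessions in the fit.

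GSTF6 and GSTF7 encode glutathione transferases of the phi class, enzymes that conjugate glutathione to reactive compounds, and lie in tandem on the minus strand of chromosome 1 with 1107 bases between them. Of the runs of 35 bases in their exons, 15.9% in GSTF6 and 15.5% in GSTF7 occur also in the other gene, so reads may have been split between them. The sources used here do not say how such reads were counted. GSTF6 was at 86.5 and 73.5 RPKM in Bur-0, at 57.0 and 33.5 RPKM in Mt-0 and at 28.5 and 32.4 RPKM in Col-0 (adjusted p = 1.29e-07, limma F test). Rsch-4 with 1.19 and 5.14 RPKM, Ws-0 with 1.86 and 4.48 RPKM and Wil-2 with 5.43 and 4.63 RPKM were lowest. GSTF7 was at 63.0 and 43.1 RPKM in Bur-0, at 6.36 and 9.95 RPKM in Col-0 and at 8.14 and 6.31 RPKM in Mt-0 (adjusted p = 6.41e-07, limma F test). For GSTF7 the Bur-0 libraries stood far above all others, and Mt-0 and Col-0 overlapped. Wu-0 with 0.415 and 1.34 RPKM, Ler-0 with 1.05 and 0.943 RPKM and Oy-0 with 0.800 and 1.31 RPKM were lowest.

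The ratio of the tandem copies varied. GSTF6 over GSTF7, from the accession means in RPKM, was 1.51 in Bur-0, 1.89 in Wil-2, 3.73 in Col-0, 6.27 in Mt-0, 10.6 in Wu-0 and 13.5 in Ler-0. The ratio was uneven between libraries where GSTF7 was low, 0.515 and 15.5 in Rsch-4 and 31.8 and 2.72 in Tsu-0 and 23.2 and 6.70 in Wu-0, but 1.37 and 1.71 in Bur-0 and 12.4 and 14.6 in Ler-0. The Bur-0 and Ler-0 libraries did not overlap in this ratio, and no test was made of it. GSTF7 rested on an estimated 1.3 and 6.6 reads in Wu-0 and 5.2 and 5.3 reads in Ler-0. These estimates use RefSeq exon length and may be too high.

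**Figure D2:**
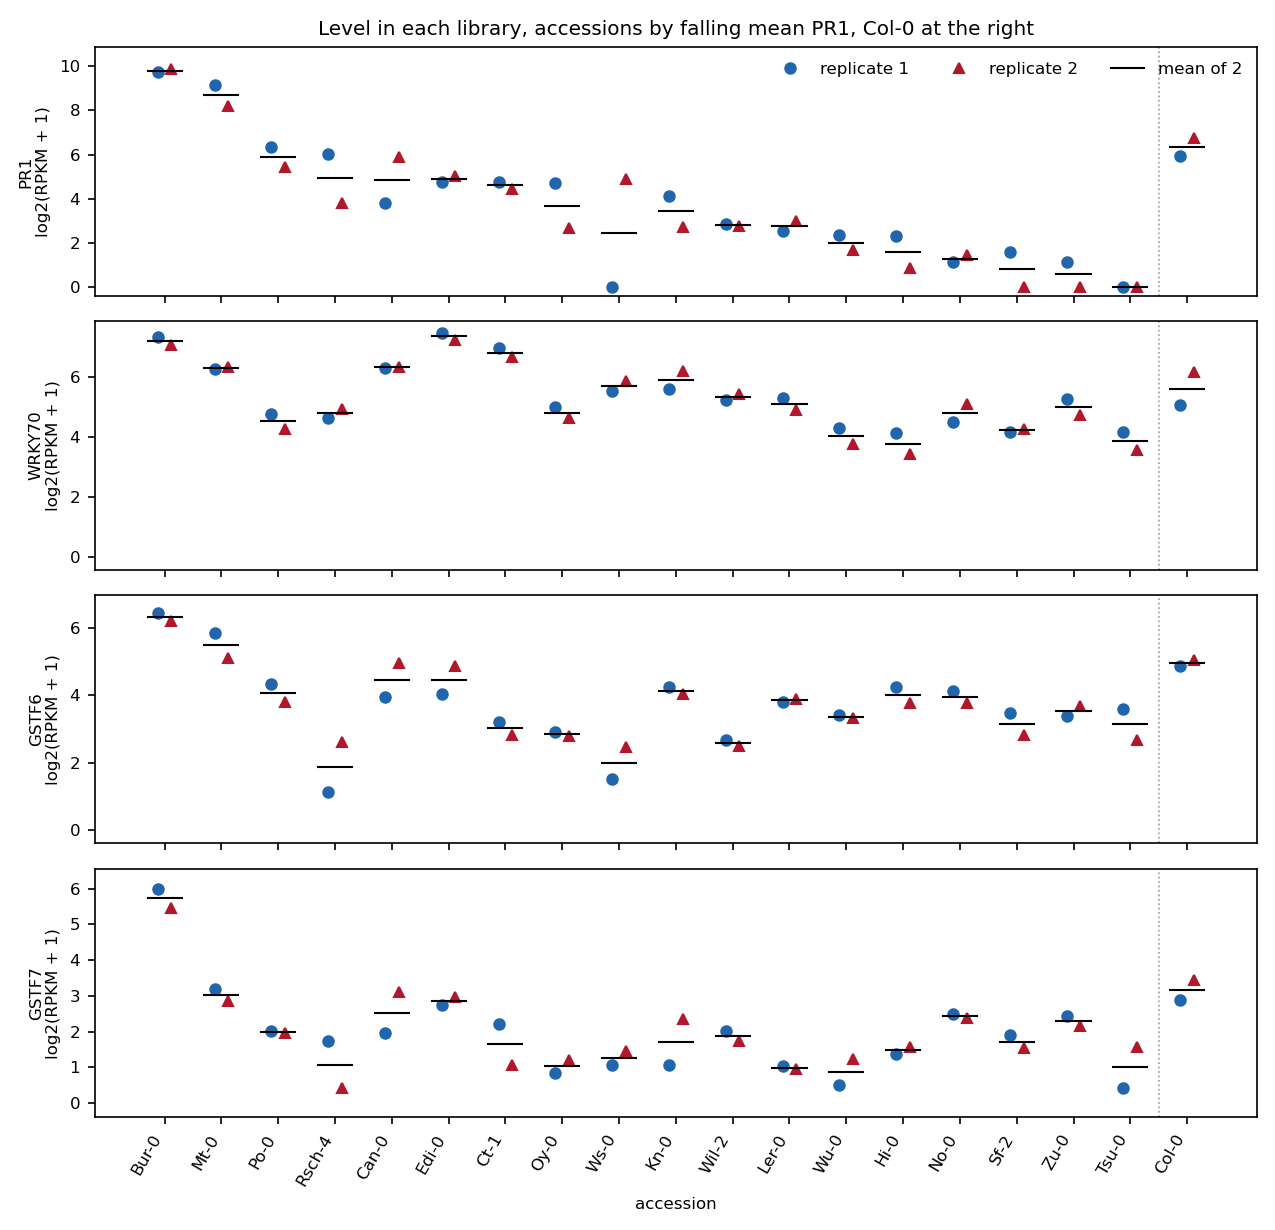
Level of PR1, WRKY70, GSTF6 and GSTF7 as log2(RPKM + 1) in each library, with circles for replicate 1, triangles for replicate 2, a bar for the mean of the 2, accessions by falling mean PR1 and Col-0 at the right. PR1 stands at 847 and 948 RPKM in Bur-0 and at 0 in both Tsu-0 libraries, while WRKY70 is highest in Edi-0 and GSTF7 stands apart in Bur-0 alone.

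Each of 18 accessions was set against Col-0 in the same limma fit, and the 18 contrasts share the 2 Col-0 libraries. Of the 180 member contrasts, 14 were higher than in Col-0, which is 7.78%, where 4.53% of all gene contrasts were higher. The lower ones were 46, or 25.6%, where 4.19% of all gene contrasts were lower. Bur-0, Can-0 and Ct-1 shared a pair of lanes with Col-0, and for the other 15 accessions the lane pair and the accession cannot be told apart. Without Col-0 replicate 2, the library with the higher level of 9 of the 10 members, 29 member contrasts were called in place of 60. Of all gene contrasts 17259 were then called in place of 32130. Without Col-0 replicate 1 the loss was 8 of the 14 higher contrasts and 7 of the 46 lower ones.

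Bur-0 had 8 members higher than Col-0 and 0 lower, where 5.01% of all genes were higher and 3.56% lower in Bur-0. The largest difference was that of PR1, 3.47 ± 1.01 on the log2 scale (SE, adjusted p = 0.0305, limma), with means of 897 RPKM in Bur-0 and 83.4 RPKM in Col-0. PR2 was higher by 2.76 (adjusted p = 0.000747), PR5 by 2.63 (adjusted p = 0.000113) and GSTF7 by 2.57 (adjusted p = 0.000449). AED1 was higher by 2.32 (adjusted p = 8.17e-05), ALD1 by 2.03 (adjusted p = 4.81e-06), WRKY70 by 1.59 (adjusted p = 0.00108) and GSTF6 by 1.36 (adjusted p = 0.0371). In all 8 both Bur-0 libraries lay above both Col-0 libraries. The calls of PR5, GSTF7, AED1 and ALD1 held in all 46 settings run. ALD1 passed the filter through the accessions in which it was high, Bur-0 and Mt-0 above all. Its call is therefore no independent support. Col-0 held an estimated 6.1 and 4.1 reads of ALD1. Those of PR2 and WRKY70 were lost without Col-0 replicate 1, with adjusted p = 0.0503 and 0.0745. Those of PR1 and GSTF6 were lost when either library of Bur-0 or either library of Col-0 was left out, with pseudocount 0.1 and without a filter on low values, at adjusted p up to 0.255 and 0.199.

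Mt-0 had 4 members higher than Col-0 and 0 lower, where 3.58% of all genes were higher and 3.27% lower in Mt-0. They were PR2, by 2.40 ± 0.518 on the log2 scale (adjusted p = 0.00386, limma), PR5 by 1.47 (adjusted p = 0.0325), AED1 by 1.38 (adjusted p = 0.0188) and ALD1 by 1.06 (adjusted p = 0.0104). All 4 calls were lost without Mt-0 replicate 1, PR2, PR5 and AED1 also without Col-0 replicate 1, and ALD1 also without Col-0 replicate 2. PR5 and AED1 were lost with no filter on low values too, and ALD1 with pseudocount 0.1. The filter limit given for ALD1 in Bur-0 applies to its Mt-0 call too. PR1, at 432 RPKM in Mt-0 and 83.4 RPKM in Col-0 on average, was not past the threshold. In Edi-0 WRKY70 alone was higher than in Col-0, by 1.74 ± 0.309 (adjusted p = 0.000504, limma), where 4.07% of all genes were higher, and the call held in all settings. In Ct-1 WRKY70 was again the 1 member higher than in Col-0, by 1.2 (adjusted p = 0.0179), where 2.85% of all genes were higher. The Ct-1 call was lost without Col-0 replicate 1 and without either Ct-1 library. Ct-1 at the same time had lower GSTF6, by -1.95 (adjusted p = 0.00330), and GSTF7, by -1.53 (adjusted p = 0.0475), so its members went in both directions, where 3.54% of all genes were lower. Both are differences on the log2 scale. The GSTF6 call was lost without Ct-1 replicate 2 and the GSTF7 call in 33 of 47 settings.

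Lower contrasts were most numerous in Hi-0, Tsu-0 and Zu-0, with 6 members each, where 3.20%, 4.93% and 6.56% of all genes were lower. PR1 was lower than in Col-0 in 9 accessions. It was -6.34 ± 1.01 on the log2 scale in Tsu-0 (adjusted p = 0.000123, limma), -5.77 in Zu-0 (adjusted p = 0.000266), -5.55 in Sf-2 (adjusted p = 0.000496) and -5.06 in No-0 (adjusted p = 0.00187), and these 4 calls held in all 47 settings. All of those settings used the biological Col-0 libraries alone. In the technical Col-0 libraries PR1 was at 1.55 ± 0.525 RPKM (SD, n = 4), near the 1.45 RPKM of No-0. GSTF6 was higher in them than in the biological ones, at 64.0 ± 9.19 RPKM. Where PR1 was listed at 0, as in Tsu-0, the difference depends on the pseudocount and is no fold. GSTF6 was also lower in 9 accessions, furthest in Rsch-4, by -3.10 ± 0.41 (adjusted p = 1.12e-05, limma), and in Ws-0, by -2.99 (adjusted p = 1.5e-05). Those 2 calls held in all 47 settings. Rsch-4 had only the 2 glutathione transferases lower and no other member past the threshold, where 4.82% of all genes were lower. GSTF7 was lower in 9 accessions, PR5 in 6, WRKY70 and AED1 in 5 each, PR2 in 2 and ALD1 in 1. The ALD1 call, in Zu-0, was of -0.776 on the log2 scale (adjusted p = 0.0467, limma) and was lost in 25 of 47 settings. Both libraries of Zu-0 listed ALD1 at 0, as did those of Wu-0, Tsu-0, Rsch-4, Po-0 and No-0, where the same difference had adjusted p-values of 0.0520 to 0.0947 in limma. NIMIN1 and WRKY38 had no contrast past the threshold in either direction, and Can-0 had no member past it, where 5.13% of all genes were higher and 4.05% lower. Of the 60 calls, 18 held in all settings run, 5 higher and 13 lower, and 36 were lost without 1 of the accession's own libraries.

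Within lane pairs fitted alone, the members differed in 3 of the 5 pairs. For Bur-0, Can-0, Ct-1 and Col-0, 6 of the 10 members passed the limma F test, where 13.2% of all genes did. Among Ler-0, Kn-0, Hi-0 and Edi-0 it was 4 of 10, where 19% did, and among Po-0, Oy-0, No-0 and Mt-0 it was 5 of 10, where 3.73% did. No member passed among Wil-2, Tsu-0, Sf-2 and Rsch-4, where 6.32% of genes did, or among Zu-0, Wu-0 and Ws-0, where 3.57% did. PR1 passed in the pair with Bur-0 (adjusted p = 0.0176) and in that with Mt-0 (adjusted p = 0.0231). WRKY70 passed only in the pair with Edi-0 (adjusted p = 0.00621), where its range was 3.57 on the log2 scale.

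The members varied together over accessions. Of the 45 pairs, all had a Pearson r above 0 over the 19 accession means of log2(RPKM + 1), from 0.390 to 0.932 with a median of 0.720. By a 2-sided permutation test, adjusted over the 45 pairs, 43 passed the threshold by Pearson r and 30 by Spearman rho. The highest r was that of PR2 and AED1, 0.932, with rho 0.774 (permutation p = 1e-05 for r, the smallest the 100000 draws can give, adjusted p = 6.43e-05, n = 19). PR1 and AED1 had r = 0.882 and rho = 0.865 (permutation adjusted p = 6.43e-05 and 0.000450). PR1 and PR5 had r = 0.896 and rho = 0.807 (permutation adjusted p = 6.43e-05 and 0.000540). With means centred within lane pair, 38 pairs passed, and PR2 with AED1 had r = 0.959.

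Much of this covariation rested on Bur-0 and Mt-0. Without these 2 accessions the median r was 0.508 and 18 pairs passed the threshold. With the 2 accessions farthest from the median of the first gene of each pair left out, 21 passed, and this is largely the same check, since those were again Bur-0 and Mt-0 for the pairs led by PR1, PR2, PR5, WRKY38 or AED1. PR2 with AED1 still had r = 0.828, PR1 with PR5 0.771 and PR1 with AED1 0.733 (permutation adjusted p = 0.00585, 0.00630 and 0.00711, n = 17). PR1 with GSTF6 went to r = 0.280, against 0.640 over all 19, and GSTF6 with AED1 to 0.004, against 0.551. The glutathione transferases stayed together, with r = 0.677 without and 0.818 with Bur-0 and Mt-0. WRKY70 and ALD1 had r = 0.765 without these accessions and 0.700 with them. The 2 pairs that missed the threshold over 19 accessions were WRKY38 with WRKY70 (r = 0.444, rho = 0.396, permutation adjusted p = 0.0562) and WRKY38 with GSTF6 (r = 0.390, rho = 0.147, permutation adjusted p = 0.0990).

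**Figure D3:**
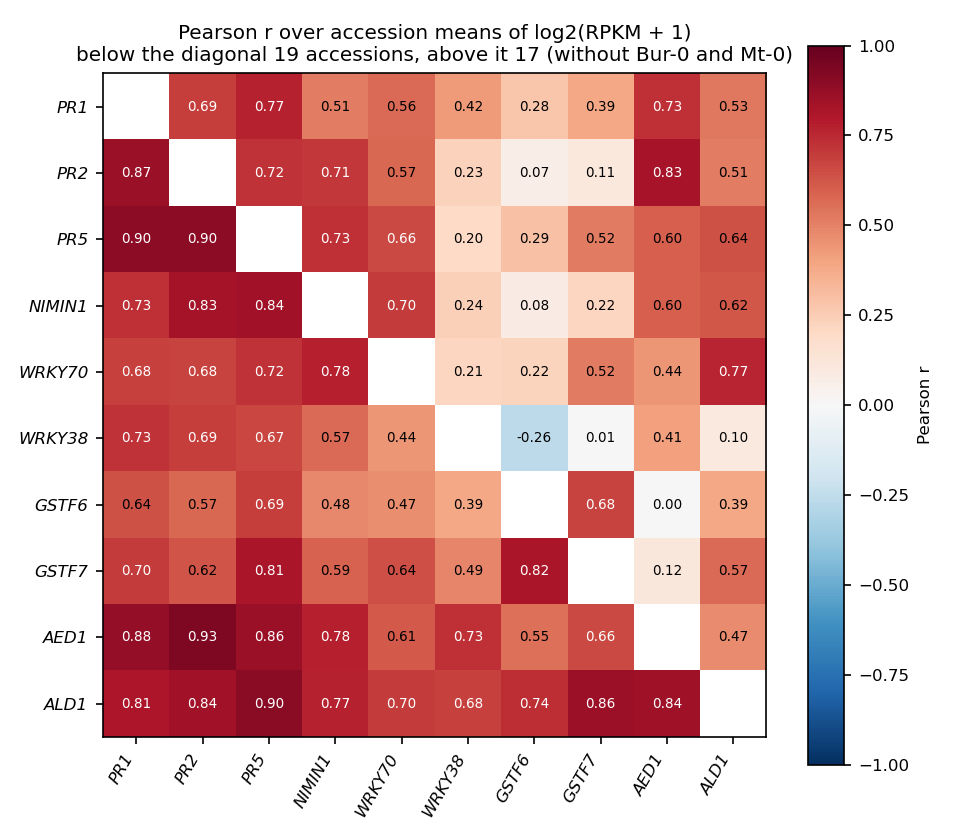
Pearson r of each pair of members over accession means of log2(RPKM + 1), with all 19 accessions below the diagonal and the 17 without Bur-0 and Mt-0 above it. Below the diagonal every r lies between 0.390 and 0.932; above it the secreted proteins PR1, PR2, PR5 and AED1 remain between 0.600 and 0.828 while the rows of WRKY38 and the glutathione transferases are paler.

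PR1 had 20452 other tested genes to be set beside, ranked by r over the 19 accession means as a description. PR5 was at rank 10, AED1 at rank 15, PR2 at rank 23 and ALD1 at rank 83, while NIMIN1 was at rank 202, WRKY38 at 211, GSTF7 at 273, WRKY70 at 330 and GSTF6 at 465. The 5 genes most like PR1 were ARCK1 (r = 0.965), AT3G61280 (0.915), SDR3 (0.914), cwINV6 (0.910) and CRT3 (0.902). Genes outside the 10 that were most like another member were VSR7 (0.900) and CRT3 (0.897) for PR2, GSTF2 (0.931) and PUB24 (0.926) for PR5, AT3G47480 (0.935) and RLP23 (0.926) for AED1, and CRK8 (0.939) and AT3G32377 (0.917) for ALD1. NIMIN1 was nearest to AT1G11330 (0.867) and AT4G23470 (0.866), WRKY70 to MPK3 (0.920) and WRKY33 (0.911), and WRKY38 to UGT76B1 (0.863) and AGP5 (0.831). GSTF6 was nearest to AT4G39670 (0.853) and AT4G00700 (0.846), and GSTF7 to AT1G26380 (0.889) and AT2G45220 (0.883). These are Pearson r over 19 accessions that share the high levels of Bur-0, with no p attached.

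The 2 libraries of an accession, which share genotype and growth conditions per the labels, also differed in these genes. All 10 members were higher in replicate 2 than in replicate 1 in Ws-0 and in Can-0, and 9 of 10 were so in Col-0. In Ct-1, Mt-0, Oy-0 and Sf-2, 9 of 10 were higher in replicate 1. The share of all genes higher in either replicate was not computed, so these counts have no baseline. The 2 libraries also ran on different lanes, except in Zu-0. Ws-0 replicate 2 had the lowest estimated depth, 1240000 reads, against 4000000 in Ws-0 replicate 1. The difference of PR1 was 4.88 on the log2 scale in Ws-0, 2.09 in Can-0 and 0.84 in Col-0, and -2.20 in Rsch-4, -2.03 in Oy-0 and -1.58 in Sf-2. Over the 19 differences, 42 of the 45 pairs had r above 0 and 10 passed the threshold after adjustment, an alternative chosen after the data were seen. PR2 and AED1 had r = 0.875, PR5 and AED1 0.815, PR2 and PR5 0.773 and PR1 and AED1 0.724. GSTF6 and GSTF7, at r = 0.818 over accession means, had r = -0.062 over these differences. Replicate numbers have no order, so the sign of a difference carries no meaning beyond its accession. These r, their p-values and the counts of pairs would change with another numbering and serve as description only.

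**Figure D4:**
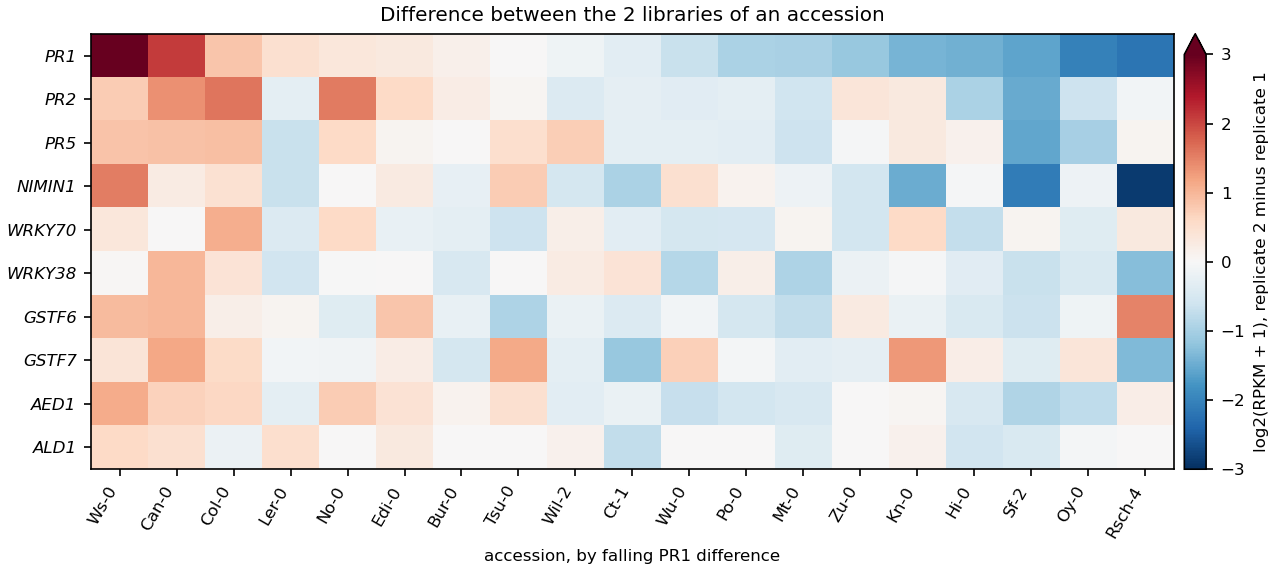
Difference in log2(RPKM + 1) between the 2 libraries of each accession, replicate 2 minus replicate 1, for the 10 members, with accessions by falling PR1 difference and the colour scale ending at 3 on either side. Ws-0 and Can-0 are red for all 10 members, while Sf-2 and Oy-0 are blue for 9 of 10; the PR1 value of Ws-0, 4.88, lies past the end of the scale.

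Col-0 could be viewed in a second set of libraries. The 4 technical libraries were on lane 7 of run 35, came with another list of genes, and are compared by description alone. PR1 was at 1.55 ± 0.525 RPKM in the technical libraries (SD, n = 4), from 0.86 to 2.11, and at 83.4 ± 33.8 RPKM in the biological ones (SD, n = 2). PR2 was at 6.27 ± 1.16 and 23.1 ± 17.1 RPKM in technical and biological libraries, PR5 at 3.95 ± 0.671 and 27.7 ± 12.4 RPKM, and AED1 at 11.8 ± 0.572 and 30.2 ± 9.24 RPKM. GSTF6 went the other way, with 64.0 ± 9.19 RPKM in technical and 30.4 ± 2.78 RPKM in biological libraries, and so did ALD1, with 1.17 ± 0.342 and 0.716 ± 0.146 RPKM. For these genes the 2 kinds of library did not overlap. The share of all genes without overlap was not computed, so this is no result about the members as a set. WRKY70, at 56.3 ± 3.33 and 50.9 ± 26.5 RPKM, overlapped, as did NIMIN1, WRKY38 and GSTF7. PR1 in the technical Col-0 libraries thus lay at the level of No-0, at 1.45 RPKM on average, while the biological Col-0 libraries were behind only Bur-0 and Mt-0. Run, plants and feature list cannot be told apart here.

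**Figure D5:**
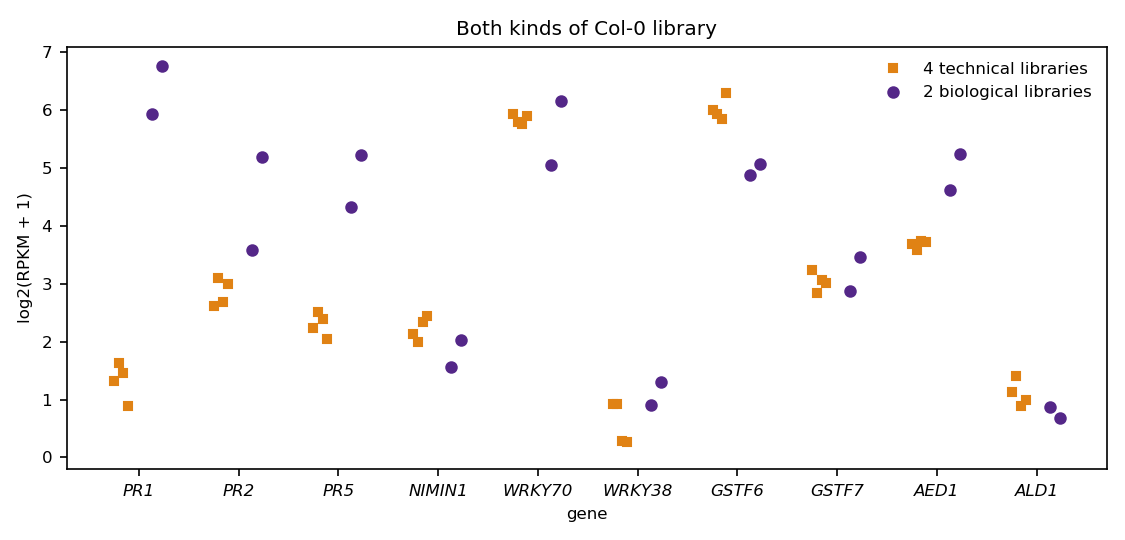
Level of the 10 members as log2(RPKM + 1) in Col-0, squares for the 4 technical libraries and circles for the 2 biological libraries, 1 point per library. PR1, PR2, PR5 and AED1 lie lower in the technical libraries, GSTF6 and ALD1 higher, and the other 4 genes overlap.

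Genes upstream of the members had narrower ranges at the median. Of 24 tested genes of salicylic acid synthesis and signalling, 18 passed the limma F test, where 55.1% of all genes did, with a median SD between accessions of 0.351 on the log2 scale, against 0.269 over all genes and 1.11 in the members. ACD6, a membrane protein that raises salicylic acid signalling, was at 194 ± 4.05 RPKM in Ct-1 (SD, n = 2) and 0.519 ± 0.337 RPKM in No-0. NIMIN2, a relative of NIMIN1, was at 33.6 ± 3.27 RPKM in Bur-0 and 3.54 ± 0.128 RPKM in Tsu-0. SARD1 and CBP60g, factors that switch on the synthesis gene ICS1, had their highest means in Bur-0, 10.4 ± 1.91 and 8.42 ± 0.338 RPKM, and their lowest at 0.700 ± 0.161 RPKM in Hi-0 and 0.524 ± 0.110 RPKM in Ler-0. PBS3, an enzyme of salicylic acid synthesis, was at 4.72 ± 1.79 RPKM in Bur-0 and 0.241 ± 0.121 RPKM in Tsu-0. Bur-0 had the highest mean of 10 of these 24 genes.

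Of 10 tested genes of N-hydroxypipecolic acid and salicylic acid turnover, 9 passed the limma F test, where 55.1% of all genes did. UGT74F1, a glucosyltransferase of salicylic acid, missed its threshold (adjusted p = 0.0570, limma F test). BSMT1 did not reach the filter. Here Mt-0 was highest for 4 of the 10 genes and Bur-0 for 1, where Mt-0 was highest for 4.99% of all genes. DMR6 and DLO1, hydroxylases that break salicylic acid down, were at 53.5 ± 9.92 and 8.33 ± 0.118 RPKM in Mt-0 and lowest at 3.89 ± 1.60 RPKM in Tsu-0 and 0.0905 ± 0.128 RPKM in Zu-0. UGT76B1, which glucosylates N-hydroxypipecolic acid, was at 6.16 ± 0.0446 RPKM in Mt-0, and both Hi-0 libraries listed it at 0. MES9, an esterase of methyl salicylate, was highest in Can-0 at 26.9 ± 4.54 RPKM and lowest in Rsch-4 at 1.06 ± 0.844 RPKM. AZI1, a lipid transfer protein of systemic resistance, was highest in Edi-0 at 75.2 ± 2.41 RPKM and lowest in Ct-1 at 5.39 ± 1.14 RPKM.

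A further list held genes induced by salicylic acid and relatives of PR1. Its 19 tested genes had a median SD of 0.964 on the log2 scale, close to the members' 1.11. Of them, 18 passed the limma F test, where 55.1% of all genes did. The gene that missed it was PR1-like (AT2G19990, adjusted p = 0.0583), and GSTF3 lacked values in some libraries. AIG1, found as a gene induced by bacterial avirulence, was at 78.8 ± 31.3 RPKM in Bur-0, while Sf-2 listed it at 0 in both libraries. PNP-A, a secreted natriuretic-like peptide, and BG3, a glucanase related to PR2, were at 40.7 ± 1.97 and 43.2 ± 8.84 RPKM in Bur-0, and No-0 listed both at 0. PCC1, a small membrane protein, was highest in Ct-1 at 1047 ± 28.1 RPKM and lowest in No-0 at 14.1 ± 0.342 RPKM. PRB1, a basic relative of PR1 known to respond to ethylene and jasmonate rather than to salicylic acid, was at 45.6 ± 7.80 RPKM in Zu-0, where PR1 was near 0, and 0.927 ± 0.411 RPKM in Sf-2. Bur-0 led for 11 of these 19 genes.

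Jasmonate and ethylene defence responses are often opposed to salicylic acid in Arabidopsis. Bur-0 had the highest mean of 5 of the 11 genes tested, PDF1.2a, PDF1.2b, ORA59, PR3 and PR4, where it was highest for 5.93% of all genes. MYC2, JAZ1 and JAZ10 were highest in No-0, VSP1 and VSP2 in Sf-2 and LOX2 in Mt-0. The 2 No-0 libraries lay far apart in MYC2, JAZ1 and JAZ10. They held 27.2 ± 18.95, 31.05 ± 31.7 and 7.97 ± 7.38 RPKM of them (SD, n = 2). Of the 11, 10 passed the limma F test, where 55.1% of all genes did. JAZ10 missed its threshold (adjusted p = 0.201, limma F test), and ERF1 and THI2.1 did not reach the filter. The defensin PDF1.2a reached 39.4 ± 16.1 RPKM in Bur-0, while Ler-0 listed it at 0 in both libraries. PR3, a chitinase, reached 28.3 ± 5.51 RPKM in Bur-0, with 0 in both libraries of No-0, and PR4, a chitin-binding protein, was at 245 ± 34.3 RPKM in Bur-0 and 14.8 ± 0.577 RPKM in Ws-0. VSP1 and VSP2, storage proteins of the jasmonate branch, were in Sf-2 at 38.4 ± 19.04 and 192 ± 6.4 RPKM.

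Of 6 tested senescence genes all passed the limma F test, where 55.1% of all genes did. SAG13, an early senescence gene, was highest in Bur-0 at 30.2 ± 3.58 RPKM, with 0 in both libraries of Ws-0. SEN1, induced by darkness, was highest in Edi-0 at 19.2 ± 9.01 RPKM and lowest in Bur-0 at 1.11 ± 1.17 RPKM, and SAG12, the marker of late senescence, did not reach the filter. Of 9 clock genes all passed, with ELF4, an evening gene, at 134 ± 4.87 RPKM in Zu-0 and 1.88 ± 0.513 RPKM in Mt-0. The first principal component of these 9 held 83.9% of their variance over accession means, and its r with the members was 0.138 for GSTF7 to 0.509 for GSTF6. With that component taken out, 39 of the 45 member pairs passed the threshold.

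The sum of the root markers was low in Bur-0, and that of the seed markers was near the detection limit at the median. The markers past the limma F test were 3 of 5 for mesophyll, 2 of 3 tested for root, 2 of 2 for flower and pollen, 1 of 3 for seed, 2 of 2 for trichomes and 3 of 4 for the stomatal lineage. Of all genes tested, 55.1% passed. The 6 root markers summed to 96.7 and 83.3 RPKM in Bur-0 and 153 and 158 RPKM in Mt-0, against a median of 184 and a range of 81.9 to 454 over all 38 libraries. The 3 trichome markers summed to 10.02 and 8.72 RPKM in Bur-0 and 10.1 and 8.85 RPKM in Mt-0, within 0.366 to 18.98. The 4 flower markers summed to at most 5.14 RPKM in these 4 libraries, within 0.154 to 28.6. The 4 seed markers were listed at 0 in both Bur-0 libraries and in Mt-0 replicate 1, against a median sum of 0.438 RPKM. At this depth such values cannot be told apart. Of the seed markers, 2S3, a seed storage protein, did not reach the filter. The part of tissue makeup in the member differences was not tested. In seedling RNA, fewer expressing cells and less RNA per cell cannot be told apart.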

How the data were processed

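The values are RPKM that the authors deposited for each library, per the file headers scaled by exon model length and mapped reads. Builds TAIR9 and TAIR10 are named in the submitters' processing notes; the sources used here give no aligner, counter or use of strand. The code -1 in the files of the 38 biological libraries was read as no value. Whole reads were not recovered for any library, so no count test was run, and depth was estimated from the values. A gene needed 1 RPKM or more in 2 or more biological libraries, which 20669 met, of which 216 lacked a value in some library and were left out. Values were fitted as log2(RPKM + 1) in limma (3.58.1, under R 4.3.3) by accession means without a block, with moderation that followed the mean level. An F test compared 19 means, and 18 contrasts set each accession against Col-0, adjusted within each contrast by Benjamini-Hochberg. The fit was tested on simulated data. Correlations used 100000 permutations and Python 3.11.15. Sequences were cut from RefSeq's TAIR10.1 genome by its annotation; the promoters of 2 members are not reported here. The members, gene lists and tests were chosen with earlier results of these data known. The list genes named are, for each list, up to 5 past the F test with the widest range, and those that missed it where 5 or fewer did; the clock and senescence lists are given by fewer, and marker lists by count and sum. Accessions named are the highest 3 and lowest 3 of each member, with others named where a comparison turns on them. Likeness names are the 5 genes nearest to PR1 and the 2 nearest to each other member. Alternatives were other pseudocounts (0.1 and 10), filters, scalings and moderation, a replicate block, lane pairs alone and each library left out.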

Additional observations from a re-analysis of the deposited data

How the results depend on the processing

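All 10 members passed the F test under each pseudocount, scaling and moderation, under the replicate block and without each library in turn. NIMIN1 was lost without a filter on low values, and WRKY38 did not reach the filter of 5 RPKM. Without Bur-0 and Mt-0, 8 members passed, where 10436 of the 20453 genes tested did. Lane pairs alone gave 6, 4, 5, 0 and 0 members, with fewer samples in each fit. Leaving out 1 library gave 17259 to 36219 gene contrasts against Col-0 in place of 32130, lowest without Col-0 replicate 2, and 29 to 65 member contrasts in place of 60. Member pairs past the threshold numbered 40 to 45 without 1 library, 18 without Bur-0 and Mt-0, 21 without the 2 farthest accessions and 10 for differences between libraries. In the last setting r turned negative for NIMIN1 with WRKY70 (-0.127), NIMIN1 with GSTF6 (-0.080) and GSTF6 with GSTF7 (-0.062), and the cause was not tested. The r of that setting depend on which library of an accession is numbered 1. Mesophyll markers past the F test fell to 1 without a filter, flower and trichome markers to 1 each at 5 RPKM, and seed markers to 0 with pseudocount 0.1, without a filter or at 5 RPKM, and to between 0 and 2 without 1 library. The replicate numbers do not pair the libraries: over 171 pairs of accessions, deviations of same-numbered libraries correlated at -0.139 to 0.133, and 2 pairs exceeded 0.1. With the replicate block, 11072 genes passed the F test in place of 11274, all 10 members among them, 31462 gene contrasts were called, and 57 of the 60 member contrasts were kept, with 3 lost and none gained. Scaling to the median shifted libraries by -0.091 to 0.072 on the log2 scale. Depth limits ALD1, WRKY38 and NIMIN1 most, with 26, 23 and 13 libraries under the value of 3 reads by RefSeq exon length.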
